A study of Mus musculus with 12 samples.

Results

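The miRNAs described here come from the Rtl1 and Rian side of the imprinted Dlk1-Dio3 domain on mouse chromosome 12. They were chosen by name: every row of the deposited miRNA table whose name is miR-770, miR-673, miR-493, miR-337, miR-540, miR-665, miR-3070, miR-431, miR-433, miR-127, miR-434, miR-432, miR-136, miR-3071, miR-341, miR-1188 or miR-370, with any letter and either arm. The rule found 35 rows of 1042, from 18 hairpins, and used no measured value. Small RNA of 18 to 30 nucleotides had been sequenced from 5 mouse cell types. The 3 embryonic stem cell (ESC) libraries came from the E14 line, which has a 129/ola background. The 3 mouse embryonic fibroblast (MEF) libraries came from a C57B6/129SvJae F1 line. The reprogrammed lines were all derived from these same MEFs: induced pluripotent stem cells (iPSC, 2 libraries) made with doxycycline-inducible lentiviruses carrying Oct4, Sox2, Klf4 and c-Myc, nuclear transfer ESCs (NT-ESC, 2 libraries) made by moving a MEF nucleus into an enucleated oocyte, and NT-iPSCs (2 libraries) made in the same way from an iPSC nucleus. All pluripotent cells had been grown on irradiated MEFs with the cytokine LIF. The libraries of a cell type are separate RNA batches of 1 line, so every p-value below measures only the spread between RNA batches. Strain cannot be told apart from cell type where ESCs are compared with the other 4 groups.

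Dlk1-Dio3 is an imprinted domain: its protein-coding genes are expressed from the paternal chromosome, and its noncoding RNAs, among them Meg3, Rian and the miRNA hairpins, from the maternal one. The maternal transcription unit is long and carries many hairpins, each of which is cut by Drosha and Dicer into a 5p and a 3p arm. Several of the hairpins lie antisense to Rtl1, a paternally expressed retrotransposon-derived gene needed in the placenta, and the miRNAs made from them can cut the Rtl1 transcript. The domain is known in stem cell biology because its maternal RNAs are silenced in some iPSC lines of low developmental potential.

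In the mouse genome (RefSeq, GRCm38.p6) the 18 hairpins lay on chromosome 12 between position 109563692, where Mir770 starts, and position 109618336, where Mir370 ends. Mir770 lay in an exon of Meg3 (GENCODE M21, 109541001 to 109571726, plus strand). Mir673, Mir493, Mir337 (109585789 to 109585885), Mir540 (109586080 to 109586146), Mir665 (109586314 to 109586407), Mir3070a and Mir3070b lay between Meg3 and Rtl1. Overlap with genes other than Meg3, Rtl1 and Rian was not looked up. Mir431 (109590447 to 109590537), Mir433 (109591715 to 109591838), Mir127 (109592846 to 109592915), Mir434 (109594506 to 109594599), Mir432 and Mir136 lay on the plus strand, opposite the coding sequence of Rtl1 (109589193 to 109600330, minus strand). Mir3071 overlapped Mir136 on the minus strand, the strand of Rtl1. Mir341 (109611500 to 109611595), Mir1188 and Mir370 (109618258 to 109618336) lay in introns of Rian (109603940 to 109661716, plus strand).

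**Figure D1:**
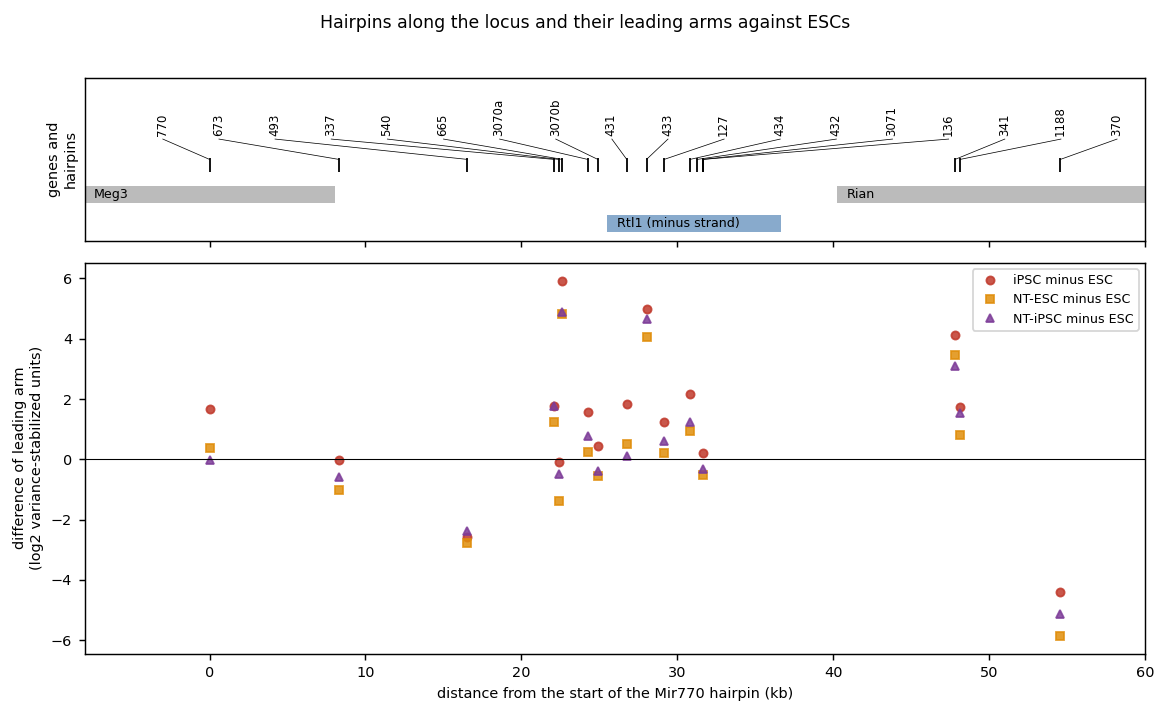
Upper panel, the 18 hairpins (ticks, numbered without the prefix Mir) and the genes Meg3, Rtl1 and Rian against the distance from the start of Mir770 in kb. Lower panel, the difference from ESCs of the arm with more reads of each of the 16 hairpins tested, in log2 variance-stabilized units, for each reprogrammed cell type: miR-665-3p, miR-433-3p and miR-341-3p lie above 3 in all 3 types, and miR-370-3p lies below -4 in all 3.

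All 35 rows matched a RefSeq mature sequence. Shown are both arms of the hairpins whose arms were called in opposite directions between reprogrammed cells and ESCs or whose arm balance changed, so that the arms can be set side by side, and miR-665-3p and miR-341-3p, which rose while their 5p arms held few reads. They are written 5′ to 3′ in lower case, and the seed (bases 2 to 8, which pairs with target mRNAs) is in capitals.
miR-337-5p: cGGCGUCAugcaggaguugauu
miR-337-3p: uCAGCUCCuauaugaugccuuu
miR-540-5p: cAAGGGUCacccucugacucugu
miR-540-3p: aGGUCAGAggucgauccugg
miR-665-3p: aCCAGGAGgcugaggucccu
miR-433-5p: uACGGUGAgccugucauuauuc
miR-433-3p: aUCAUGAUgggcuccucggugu
miR-127-5p: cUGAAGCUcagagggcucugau
miR-127-3p: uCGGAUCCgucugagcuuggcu
miR-434-5p: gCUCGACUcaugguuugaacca
miR-434-3p: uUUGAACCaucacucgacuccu
miR-341-3p: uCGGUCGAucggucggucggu
miR-370-5p: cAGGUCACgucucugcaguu
miR-370-3p: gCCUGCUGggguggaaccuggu
No seed was shared between members of different numbers, so each arm shown has a seed of its own within the group. Outside the group, the seed of miR-540-3p is also that of miR-6915-5p, and the seed of miR-370-5p is also that of miR-1193-3p, a miRNA of the same domain. The Mir434 hairpin, whose balance changed most among the 9 hairpins in which it was tested, reads as follows with both mature arms in capitals, 5p first.
Mir434: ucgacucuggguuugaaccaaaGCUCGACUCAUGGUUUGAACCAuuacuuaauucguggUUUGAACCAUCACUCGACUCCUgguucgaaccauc

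Levels are given as normalized reads, which are the reads of a miRNA divided by the size factor of its library. Differences are given on the log2 variance-stabilized scale of the deposited values, where for well-sequenced miRNAs a difference of 1 is close to a doubling. Libraries held between 4863365 and 8608689 miRNA reads, and 3 reads corresponded to between 0.348 and 0.617 CPM (a read share scaled to the library total). The size factors of the 6 reprogrammed libraries lay between 1.14 and 1.44, and those of the 6 MEF and ESC libraries between 0.762 and 0.999. The libraries compared below thus also stand apart in size factor, and its part in the differences was not tested. In the paper's description of its sequencing, each reprogrammed library had more total reads than every MEF and ESC library. Each also had a smaller share of reads without the 3′ adaptor and a larger share of 5′ adaptor contaminants. Where reprogrammed cells are compared with ESCs or MEFs, reprogramming cannot be told apart from these library features. As a check of the labels, the 13 rows of the miR-290 and miR-302 clusters, which mark pluripotent cells, summed to 8.55 to 140 normalized reads in MEFs and to 542001 to 1002160 in the pluripotent libraries. The 9 rows of fibroblast markers found (miR-199a, miR-199b, miR-214, miR-143, miR-145 and miR-152) summed to 715487 to 1195100 in MEFs, 229755 to 262781 in ESCs, 101222 to 106786 in iPSCs, 326071 to 346719 in NT-ESCs and 377267 to 450705 in NT-iPSCs, and none of the 9 was at 0 in any library. The markers did not move as a set: against ESCs, all reprogrammed libraries were lower in 4 of the 9, among them miR-143-3p (195573 to 228358 in ESCs and 5189 to 20828 in reprogrammed libraries), higher in 2 and overlapping in 3. Over all tested miRNAs, 520 of 732 had no overlap between reprogrammed and ESC libraries, in either direction. The 2 higher rows, miR-199a-3p and miR-199b-3p, hold nearly equal values of 1 mature sequence and made up most of the sum in reprogrammed libraries. Without both, a sum formed after the values were seen, the markers were at 568782 to 953788 in MEFs, 211362 to 245332 in ESCs, 18109 to 19098 in iPSCs, 27565 to 31759 in NT-ESCs and 32327 to 35389.9 in NT-iPSCs. The part of fibroblast RNA in the differences below was not tested. In these bulk samples, fewer cells making a miRNA and less of it per cell cannot be told apart.

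Of the 35 rows, 30 reached the 10 reads in at least 2 libraries that the test required. The 5 that did not were miR-432 and miR-3071-3p, which had no read in any library, miR-3071-5p, with 1 read in all, miR-1188-3p, with 3, and miR-3070a-3p. A count of 0 allows up to 3 reads in a library. The 5p arms of Mir3070a and Mir3070b have the same sequence and carried the same values, so they are 1 measurement listed under 2 names, with at most 11.7 normalized reads in any library. They passed the limit only through the iPSC libraries, with 16 and 15 reads there and at most 8 in any other, so their higher count in iPSCs is what let them pass.

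The members together summed to 80824 to 90335 normalized reads in ESCs, 119100.0 to 124739 in NT-ESCs, 156209 to 159179 in NT-iPSCs, 161741 to 211790.0 in MEFs and 221762 to 267039 in iPSCs. The groups did not overlap in this sum. As a share of all miRNA reads, which does not use the size factors, the members took 1.49% to 1.57% in ESCs, 1.63% to 1.87% in MEFs, 2.27% to 2.29% in NT-ESCs, 2.55% to 2.65% in NT-iPSCs and 5.71% to 5.99% in iPSCs. The share in MEFs was thus below that in NT-ESCs, although their normalized sum was above it. miR-127-3p, which can cut the Rtl1 transcript, made up 32.8% to 52.1% of the members' normalized reads in every library. miR-433-3p made up 0.597% to 1.86% of them in MEFs and ESCs and 18.1% to 22.6% in the reprogrammed libraries.

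**Figure D2:**
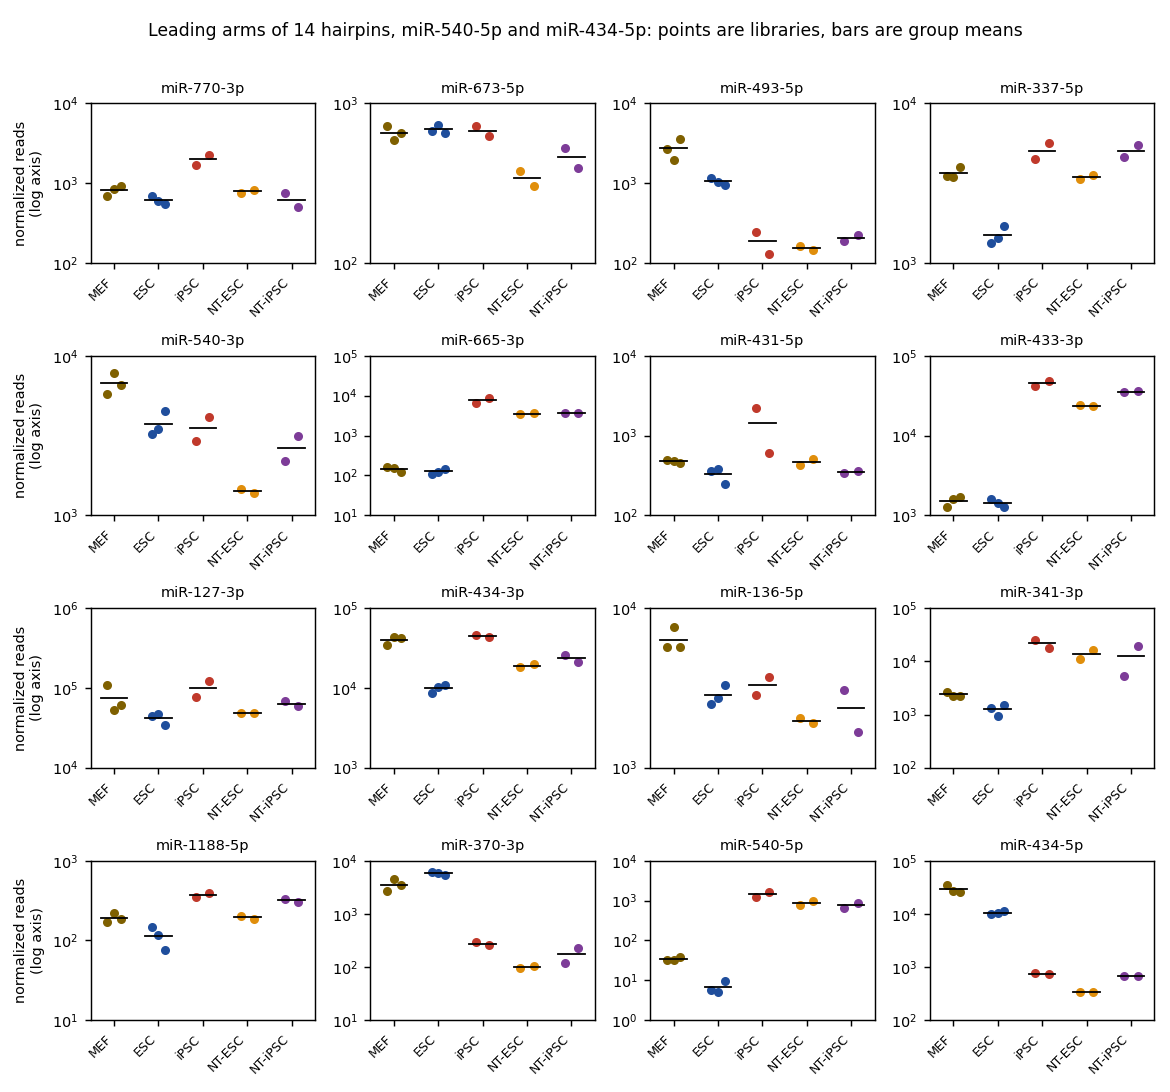
Normalized reads (log axis) by cell type for the arm with more reads of 14 hairpins, in chromosomal order, then for miR-540-5p and miR-434-5p. Points are libraries and bars are group means: miR-433-3p and miR-665-3p are high in all 6 reprogrammed libraries, miR-370-3p and miR-434-5p are low in all 6, and miR-434-3p is lowest in the 3 ESC libraries.

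In MEFs, the fibroblasts from which the reprogrammed cells were made, most called members had higher normalized levels than in ESCs. Of the 30 tested, 19 passed the threshold of limma with Benjamini-Hochberg adjustment over all 732 miRNAs tested, 18 of them higher in MEFs and 1 lower. Without MEF library 15 the count was 15 higher and 4 lower, the 3 added lower calls being miR-370-5p and both names of the Mir3070 5p sequence. Without MEF library 13, limma called 16 higher and 0 lower (16 and 1 at an unadjusted p under 0.05). Among all miRNAs 79.0% were called, 39.1% higher and 39.9% lower, so calls in the rest of the table were split about evenly between the directions. Their median difference was 0.84, against 0.00 over all miRNAs. The balance depended on scaling: 23 members were called higher and 0 lower with upper quartile scaling (25 and 0 at an unadjusted p under 0.05), and 10 higher and 5 lower with scaling by trimmed means, which shifted the median of all miRNAs by 0.63 and by -0.48. With these scalings the higher calls were 60.4% and 38.6% of all calls, against 49.5% in the main analysis. As a share of all miRNA reads, the members took 1.63% to 1.87% in MEFs and 1.49% to 1.57% in ESCs. These shares, which use no size factors, lay closer together than the normalized sums.

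The largest differences between MEFs and ESCs were in miR-540-5p (2.28 ± 0.26, SE), miR-434-3p (2.01 ± 0.15), miR-341-5p (1.910 ± 0.66) and miR-337-3p (1.904 ± 0.17). With all libraries, the only member called lower in MEFs was miR-370-3p, with 2642, 4530.3 and 3431 normalized reads in MEFs against 6042, 5861 and 5512 in ESCs (difference -0.75 ± 0.24, limma adjusted p = 0.0144). Both arms of Mir673 had nearly the same level in both cell types: miR-673-3p had 97.1, 116 and 106 normalized reads in MEFs and 112, 107 and 104 in ESCs. miR-433-3p and miR-665-3p, which were far higher in the reprogrammed cells, were not called between MEFs and ESCs (0.10 ± 0.14 and 0.19 ± 0.18). Of the 19 calls, 10 were kept in each of the 19 alternative fits that tested them, and the 9 others were lost in at least 1.

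Against ESCs, the reprogrammed cells had both large gains and large losses within the same transcription unit. With the mean of iPSCs, NT-ESCs and NT-iPSCs set against ESCs, 25 of the 30 members were called, 16 higher and 9 lower. The background was 82.0% of all miRNAs, 44.0% higher and 38.0% lower, so the share of members called was near the background. The differences ran from -5.13 to 7.11, with a median of 0.78 against 0.24 over all miRNAs. The 3 cell types gave 22 called members in iPSCs (16 higher and 6 lower, against a background of 75.8% called, 39.8% higher and 36.1% lower), 19 in NT-ESCs (10 and 9, against 75.8% called, 39.8% higher and 36.1% lower) and 20 in NT-iPSCs (12 and 8, against 77.6% called, 41.1% higher and 36.5% lower). These comparisons share the 3 ESC libraries, and in each of them reprogramming cannot be told apart from the library features named above.

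**Figure D3:**
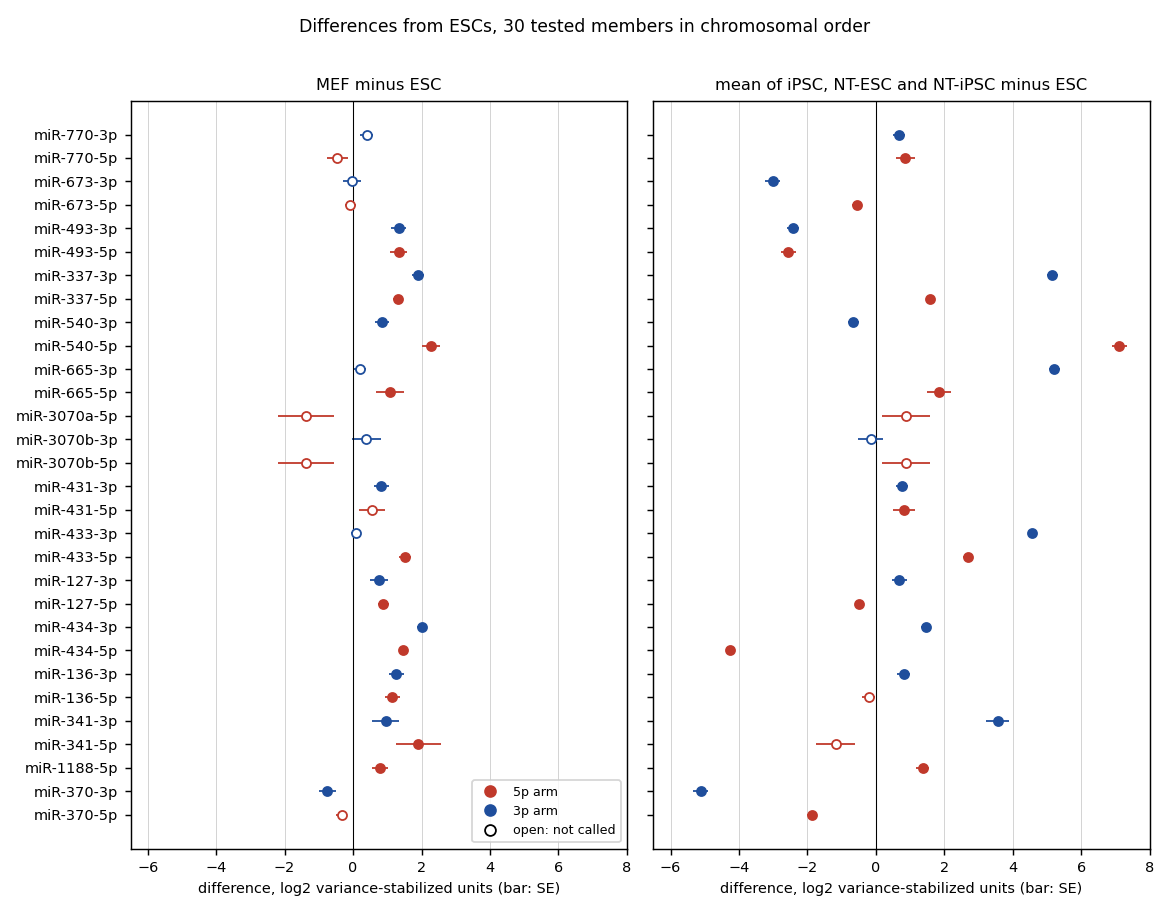
Differences from ESCs of the 30 tested members in chromosomal order, in log2 variance-stabilized units with SE, red for 5p arms and blue for 3p arms, filled where called. MEFs (left) lie between -1.38 and 2.28, and the mean of the reprogrammed types (right) spreads from -5.13 to 7.11, with the arms of Mir434 and of Mir540 on opposite sides of 0.

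Upstream of Rtl1, the gain was concentrated in 3 neighbouring hairpins, Mir337, Mir540 and Mir665. miR-665-3p had 107, 122 and 148 normalized reads in ESCs and 161, 153 and 118 in MEFs. It had 6534 and 8948 in iPSCs, 3457 and 3622 in NT-ESCs, and 3611 and 3781 in NT-iPSCs. Every reprogrammed library was thus above every ESC and MEF library, and the mean was 39.7-fold that of ESCs (5.21 ± 0.16, limma adjusted p = 1.2e-10). Its minor arm miR-665-5p ranged from 4.004 to 7.58 normalized reads in ESCs, 9.77 to 13.1 in MEFs and 14.7 to 42.5 in the reprogrammed libraries, and was called higher (1.83 ± 0.36). miR-337-5p, the major arm of its hairpin, rose less. It had 1324, 1434 and 1694 normalized reads in ESCs, 3526, 3471 and 4005 in MEFs, 4446 and 5635 in iPSCs, 3351 and 3565 in NT-ESCs, and 4588 and 5489 in NT-iPSCs. The reprogrammed libraries lay above ESCs (1.58 ± 0.13) and overlapped with MEFs (0.27 ± 0.13 against MEFs, adjusted p = 0.059). Its partner miR-337-3p had 24.8, 21.0 and 19.5 normalized reads in ESCs, 87.9, 79.4 and 81.9 in MEFs, 1035 and 1302 in iPSCs, 587 and 507 in NT-ESCs, and 894 and 715 in NT-iPSCs. All reprogrammed libraries were above both other groups, 38.6-fold over the ESC mean.

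Mir540 turned from a hairpin read almost entirely from its 3p arm to one read from both. miR-540-5p had 5.64, 5.005 and 9.75 normalized reads in ESCs and 31.5, 33.0 and 39.1 in MEFs. It had 1239 and 1678 in iPSCs, 790.4 and 984 in NT-ESCs, and 666.4 and 885 in NT-iPSCs, the largest relative gain of any member (153-fold over ESCs, 7.11 ± 0.22). The ESC values rest on few reads, so the fold is less certain than its direction. miR-540-3p had 3236, 3463 and 4537 normalized reads in ESCs, 5770.3, 7795 and 6564 in MEFs, 2941 and 4127 in iPSCs, 1456 and 1383 in NT-ESCs, and 2190.4 and 3126 in NT-iPSCs. It was called lower in the reprogrammed mean (-0.66 ± 0.17, adjusted p = 0.00404), although the iPSC libraries overlapped with ESCs and only NT-ESCs were called when taken alone (-1.38 ± 0.22).

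The hairpins nearest Meg3 behaved differently from these and from each other. miR-770-3p, from the Meg3 exon, had 686, 604 and 553 normalized reads in ESCs, 684, 830.1 and 923 in MEFs, 1692 and 2271 in iPSCs, 759.9 and 825 in NT-ESCs, and 742 and 495.9 in NT-iPSCs. Both iPSC libraries were above all others, and against ESCs the iPSC difference was called (1.68 ± 0.22) while the values for NT-ESCs (0.37 ± 0.22) and NT-iPSCs (-0.01 ± 0.22) were not. Its minor arm miR-770-5p had 20.3, 28.0 and 29.2 in ESCs, 11.8, 23.2 and 22.7 in MEFs, 96.9 and 87.2 in iPSCs, 39.5 and 26.2 in NT-ESCs, and 32.7 and 37.3 in NT-iPSCs, again with iPSCs above all others. miR-493-5p fell: it had 1172, 1043 and 957 in ESCs, 2669, 1967 and 3559 in MEFs, 241 and 130.4 in iPSCs, 162 and 146 in NT-ESCs, and 186 and 223 in NT-iPSCs. The reprogrammed libraries were all below ESCs and MEFs (5.83-fold below the ESC mean, -2.57 ± 0.22), and miR-493-3p fell too (-2.43 ± 0.19). That arm had 139, 117 and 121 in ESCs, 388, 294.2 and 276 in MEFs, 30.8 and 26.4 in iPSCs, 12.5 and 17.5 in NT-ESCs, and 28.6 and 27.3 in NT-iPSCs.

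miR-673-5p was lower in the reprogrammed lines made by nuclear transfer. It had 673.2, 737 and 648 normalized reads in ESCs, 718, 587 and 649 in MEFs, 724 and 623 in iPSCs, 376.8 and 301 in NT-ESCs, and 526 and 391 in NT-iPSCs. The iPSC libraries overlapped with ESCs, and the other reprogrammed libraries lay below. Against ESCs, NT-ESCs were called lower (-1.02 ± 0.18, limma adjusted p = 0.000348) in every alternative, and NT-iPSCs (-0.59 ± 0.18, limma adjusted p = 0.0118) and the reprogrammed mean (-0.55 ± 0.14) were called lower but not with upper quartile scaling, NT-iPSCs also not without NT-iPSC library 52. Its minor arm miR-673-3p fell from 104 to 112 normalized reads in ESCs to 6.998 to 24.2 in the reprogrammed libraries (-3.02 ± 0.23). miR-3070b-3p had 18.0, 29.0 and 7.58 in ESCs, 23.6, 19.5 and 20.2 in MEFs, 19.1 and 25.6 in iPSCs, 11.8 and 9.62 in NT-ESCs, and 9.81 and 14.9 in NT-iPSCs, overlapped between groups and was not called. The shared 5p sequence of Mir3070a and Mir3070b had 3.38, 5.005 and 2.17 in ESCs, 0, 1.22 and 5.04 in MEFs, 11.7 and 10.99 in iPSCs, 4.85 and 3.499 in NT-ESCs, and 5.72 and 6.62 in NT-iPSCs, and was not called either (0.87 ± 0.70).

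In the Rtl1 antisense group, miR-433-3p had the largest rise. It had 1603, 1403 and 1256 normalized reads in ESCs and 1264, 1604 and 1706 in MEFs. It had 42144 and 48299.5 in iPSCs, 24076 and 23501 in NT-ESCs, and 34865 and 35979 in NT-iPSCs. The reprogrammed mean was 24.5-fold that of ESCs (4.57 ± 0.13, adjusted p = 6.4e-11) and the 3 reprogrammed types did not overlap with each other. miR-433-5p had 87.95, 87.1 and 109 in ESCs, 228, 259 and 328 in MEFs, 683 and 581 in iPSCs, 479 and 444 in NT-ESCs, and 752 and 816 in NT-iPSCs, and rose as well (2.69 ± 0.15).

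miR-127-3p, the most abundant member, moved little. It had 44609, 47048 and 34277 normalized reads in ESCs, 107648, 53050.2 and 61145 in MEFs, 77801 and 121953 in iPSCs, 48558 and 48139 in NT-ESCs, and 68176 and 58977 in NT-iPSCs. All reprogrammed libraries lay above the ESC libraries, those of NT-ESCs by a small margin. The difference of the reprogrammed mean (0.68 ± 0.23, adjusted p = 0.0151) lost its call with trimmed-mean scaling and without ESC library 4, and of the 3 types only iPSCs were called alone (1.23 ± 0.29). Its partner miR-127-5p had 2000.4, 2205 and 2011 in ESCs, 4745, 3297 and 3559 in MEFs and 2163, 2257, 1020.3, 946, 1330.3 and 1695 in iPSCs, NT-ESCs and NT-iPSCs, in that order. The reprogrammed mean was called lower (-0.48 ± 0.14) but not with upper quartile scaling. By type, NT-ESCs (-1.07 ± 0.18) and NT-iPSCs (-0.46 ± 0.18) were called lower, and iPSCs were not called (0.09 ± 0.18). The NT-iPSC call was not kept in every alternative fit.

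The arms of Mir434, both abundant in ESCs, were called in opposite directions. miR-434-3p had 8632, 10350.0 and 10922 normalized reads in ESCs, 34139, 44024 and 42400.2 in MEFs, 45957 and 43324 in iPSCs, 18477 and 19737 in NT-ESCs, and 26175 and 21149 in NT-iPSCs. miR-434-5p had 10023, 10232 and 11495 in ESCs, 35587, 27169.7 and 25739.9 in MEFs, 771 and 725 in iPSCs, 339 and 341.1 in NT-ESCs, and 663 and 676 in NT-iPSCs. In ESCs and MEFs both arms were thus of like abundance, whereas in every reprogrammed library the 3p arm was above its ESC level and the 5p arm far below. Against ESCs the 3p arm was 2.92-fold higher (1.45 ± 0.13, adjusted p = 7.1e-07) and the 5p arm 18.1-fold lower (-4.25 ± 0.12, adjusted p = 7.5e-11).

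The arms of Mir136, also antisense to Rtl1, differed in their calls. miR-136-5p had 2499, 2749 and 3314 normalized reads in ESCs, 5686, 7597 and 5751 in MEFs, 2864 and 3699.8 in iPSCs, 2041 and 1907 in NT-ESCs, and 3082 and 1676 in NT-iPSCs. It overlapped with ESCs and was not called (-0.21 ± 0.19), while miR-136-3p was called higher (0.81 ± 0.19). The 3p arm had 540.1, 493.5 and 533 in ESCs, 1255, 1112 and 1419 in MEFs, 1147 and 829 in iPSCs, 653 and 658 in NT-ESCs, and 883 and 1633 in NT-iPSCs. miR-431-5p had 359, 379.4 and 249 in ESCs, 499, 477 and 446 in MEFs, 422 and 509 in NT-ESCs, and 343 and 358 in NT-iPSCs. Its iPSC libraries stood 3.70-fold apart at 2236 and 604, and without the higher one the iPSC difference from ESCs went from 1.84 ± 0.42 to 0.90 ± 0.25 and kept its call. miR-431-3p had 282, 298 and 262 in ESCs, 698, 404 and 439.7 in MEFs, 672 and 891 in iPSCs, 322.8 and 305 in NT-ESCs, and 437 and 441 in NT-iPSCs, with all reprogrammed libraries above ESCs.

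In the introns of Rian, neighbouring hairpins moved in opposite directions. miR-370-3p had 6042, 5861 and 5512 normalized reads in ESCs and 2642, 4530.3 and 3431 in MEFs. It had 291.5 and 262 in iPSCs, 94.9 and 105 in NT-ESCs, and 119 and 225 in NT-iPSCs. The reprogrammed mean was 31.7-fold below ESCs (-5.13 ± 0.21, adjusted p = 8.9e-10), with no overlap, and the minor arm miR-370-5p was 3.59-fold below (-1.88 ± 0.14). That arm had 428, 425 and 449 in ESCs, 301, 339 and 402 in MEFs, 167 and 153 in iPSCs, 112 and 92.7 in NT-ESCs, and 108 and 92.7 in NT-iPSCs.

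miR-341-3p, whose hairpin lies upstream of Mir370 within Rian, rose. It had 1307, 955 and 1484 normalized reads in ESCs, 2699, 2243 and 2221 in MEFs, 25454 and 18111 in iPSCs, 11260.3 and 16442 in NT-ESCs, and 5418 and 19917 in NT-iPSCs. Every reprogrammed library was above every ESC and MEF library (12.9-fold over ESCs, 3.56 ± 0.34), but the NT-iPSC libraries stood 3.68-fold apart. Without the lower one the NT-iPSC difference from ESCs went from 3.08 ± 0.43 to 4.02 ± 0.31. The minor arm miR-341-5p had 31.7 to 105 normalized reads in MEFs. Its ESC libraries held 5.005 to 26.0 and the reprogrammed libraries 2.08 to 8.75, which overlapped with ESCs and were not called against them (-1.18 ± 0.57). miR-1188-5p had 148, 118 and 76.9 in ESCs, 168, 221 and 184 in MEFs, 349 and 398 in iPSCs, 204 and 185 in NT-ESCs, and 333 and 307 in NT-iPSCs, all reprogrammed libraries above ESCs (1.36 ± 0.20).

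Compared with MEFs, the cells they were made from and of the same strain, the reprogrammed mean had 10 members called higher and 13 lower of 30. The 10 include both names of the Mir3070 5p sequence, which passed the filter only through iPSCs, and the other 28 members had 21 calls. The background was 88.9% called, 48.5% higher and 40.4% lower. The largest rises were in miR-665-3p (5.01 ± 0.16), miR-540-5p (4.82 ± 0.22) and miR-433-3p (4.47 ± 0.13), and the largest falls in miR-434-5p (-5.72 ± 0.12), miR-370-3p (-4.38 ± 0.21) and miR-493-5p (-3.90 ± 0.22). With trimmed-mean scaling the count was 13 higher and 10 lower, and the median of all miRNAs shifted by 0.34, and by -0.42 with upper quartile scaling. The 6 members just named kept their calls under every alternative.

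The ratio of the arms within a hairpin does not depend on the size factors. The other library features named above still cannot be told apart from reprogramming here. The ratio was measured as log2 of 5p over 3p reads. It could be tested in the 9 hairpins with both arms at 10 reads or more in each ESC and reprogrammed library. The test was a two-sided exact permutation test of 3 ESC against 6 reprogrammed libraries, whose smallest possible p is 0.0119, with Benjamini-Hochberg adjustment over all 142 hairpins of the table that met the same limit. In 5 of the 9 the balance changed (adjusted p = 0.0159 for each, the exact permutation test), 4 towards the 3p arm and 1 towards the 5p arm. Over all hairpins 78.2% were called, and the median size of the change was 2.11, against 1.17 in the 9.

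Mir434 went from 0.09 ± 0.12 (SD, n = 3) in ESCs to -5.62 ± 0.39 (n = 6) in reprogrammed cells, with -0.45 ± 0.44 (n = 3) in MEFs. In words, the arms were about equal in both MEFs and ESCs, and the 3p arm dominated in each reprogrammed library. Mir337 went from 6.09 ± 0.35 in ESCs to 2.47 ± 0.35, Mir433 from -3.91 ± 0.35 to -5.78 ± 0.34, and Mir127 from -4.33 ± 0.21 to -5.49 ± 0.28. These kept their major arm, and the share of the 3p arm grew. Mir370 moved the other way, from -3.74 ± 0.11 to -0.49 ± 0.55, so that its minor 5p arm came near to its 3p arm. Mir136 moved from 2.44 ± 0.22 to 1.42 ± 0.73 with no overlap between the groups, and was not called (adjusted p = 0.073, exact permutation test). The changes of Mir770 (0.20), Mir493 (-0.11) and Mir431 (0.07) were small and not called, and in these 3 the groups overlapped. The median size of the difference between MEFs and ESCs was 0.42 in the 9 hairpins and 0.52 over all 142.

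**Figure D4:**
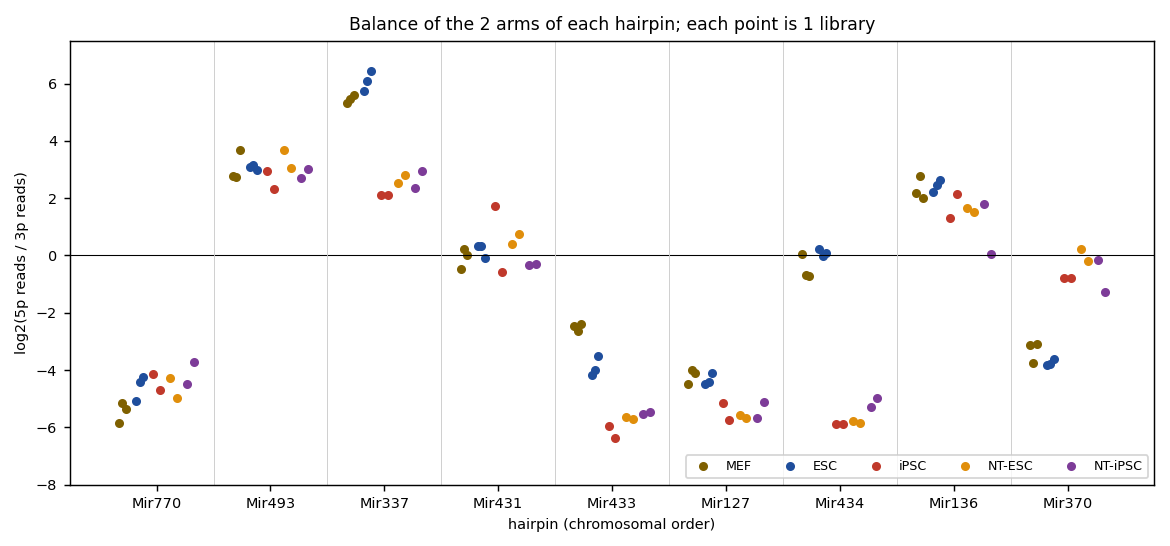
The log2 ratio of 5p to 3p reads in each library for the 9 hairpins tested, coloured by cell type. For Mir434, Mir337 and Mir370 the 6 reprogrammed libraries stand clear of the 3 MEF and 3 ESC libraries, and for Mir770, Mir493 and Mir431 they overlap with ESCs.

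Among the reprogrammed cells, which share their MEF origin and strain, the members moved together: they were lower in NT-ESCs than in iPSCs. Leaving aside both names of the Mir3070 5p sequence, whose sign against iPSCs the filter fixed, all 28 other tested members had a negative difference, from -0.20 to -1.49, and 18 were called lower and 0 higher by limma (21 lower and 0 higher at an unadjusted p under 0.05, and 20 lower and 0 higher by voom). In 3 of the fits that left out a library, 1 member each turned positive: miR-493-5p, miR-665-5p or miR-341-5p. The background was 25.7% called, 12.6% higher and 13.1% lower, and the median was -1.003 for the 28 members against -0.10 over all miRNAs. The rows share 1 transcription unit and come in pairs from the same hairpin, so they are not independent measurements. With 2 libraries a side, leaving out 1 gave 13 to 18 calls, 12 of the 18 calls were kept in each of the 19 alternative fits that tested them, and no member was called higher in any of them.

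The calls lay in all 3 stretches of the locus: 9 of 13 members before Rtl1 (the Mir3070 5p sequence left aside), 6 of 10 antisense to Rtl1 and 3 of 5 in Rian. The arms of Mir434, which had moved in opposite directions against ESCs, were both lower here: miR-434-3p (-1.22 ± 0.18, limma adjusted p = 0.000849) and miR-434-5p (-1.13 ± 0.17, limma adjusted p = 0.00091). The same held for miR-370-3p (-1.46 ± 0.29) and miR-433-3p (-0.92 ± 0.18), of which the first was far below its ESC level and the second far above. Among the largest differences were also those of miR-770-5p (-1.49 ± 0.38) and miR-770-3p (-1.31 ± 0.24). The members not called included miR-493-5p (-0.20 ± 0.31), whose iPSC libraries at 241 and 130.4 normalized reads spanned the NT-ESC values, and miR-341-3p (-0.66 ± 0.48). Beside this, 8 of the 9 fibroblast marker rows had both NT-ESC libraries above both iPSC libraries and miR-152-3p overlapped, and their sum was higher in NT-ESCs with and without miR-199a-3p and miR-199b-3p. Over all tested miRNAs, 504 of 732 had no overlap between NT-ESCs and iPSCs, in either direction. The part of the marker rows in the result was not tested. As a share of all miRNA reads the members took 5.71% to 5.99% in iPSCs and 2.27% to 2.29% in NT-ESCs.

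NT-iPSCs, made from an iPSC nucleus by transfer into an oocyte, lay between these. Against iPSCs, 24 of the same 28 members had a negative difference, with 7 called lower and 0 higher by limma, 13 lower and 0 higher at an unadjusted p under 0.05, and 11 lower and 0 higher by voom (background 26.5% called, 13.4% higher and 13.1% lower; median -0.56 against 0.00 over all miRNAs). Without NT-iPSC library 51, 1 member was called higher, miR-136-3p. The 7 were miR-770-3p (-1.69 ± 0.24), miR-770-5p, miR-665-3p (-1.05 ± 0.22), miR-431-3p, miR-431-5p, miR-434-3p (-0.92 ± 0.18) and miR-370-5p. Of these, miR-770-3p and miR-434-3p were called in every alternative fit. The call of miR-431-5p (-1.73 ± 0.46) rested on 1 iPSC library, and without it the difference was -0.78 ± 0.27 (adjusted p = 0.068). Against NT-ESCs, 25 members were higher in value and 4 were called, all higher (background 12.8% called, 5.60% higher and 7.24% lower): miR-434-5p (0.97 ± 0.17), miR-493-3p (0.89 ± 0.26), miR-540-3p (0.88 ± 0.24) and miR-433-5p (0.76 ± 0.21). None of these 4 was kept in all alternatives, and without NT-ESC library 71 or 72 limma called 0 (8 and 7 at an unadjusted p under 0.05). Without NT-iPSC library 52 it called 2 higher and 1 lower, miR-341-3p (-1.33 ± 0.32), whose NT-iPSC libraries stood apart. With trimmed-mean scaling 1 member was called, and 27.6% of all calls were higher, against 43.6% in the main analysis. The 3 comparisons share libraries pairwise, so they are not independent of one another.

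**Figure D5:**
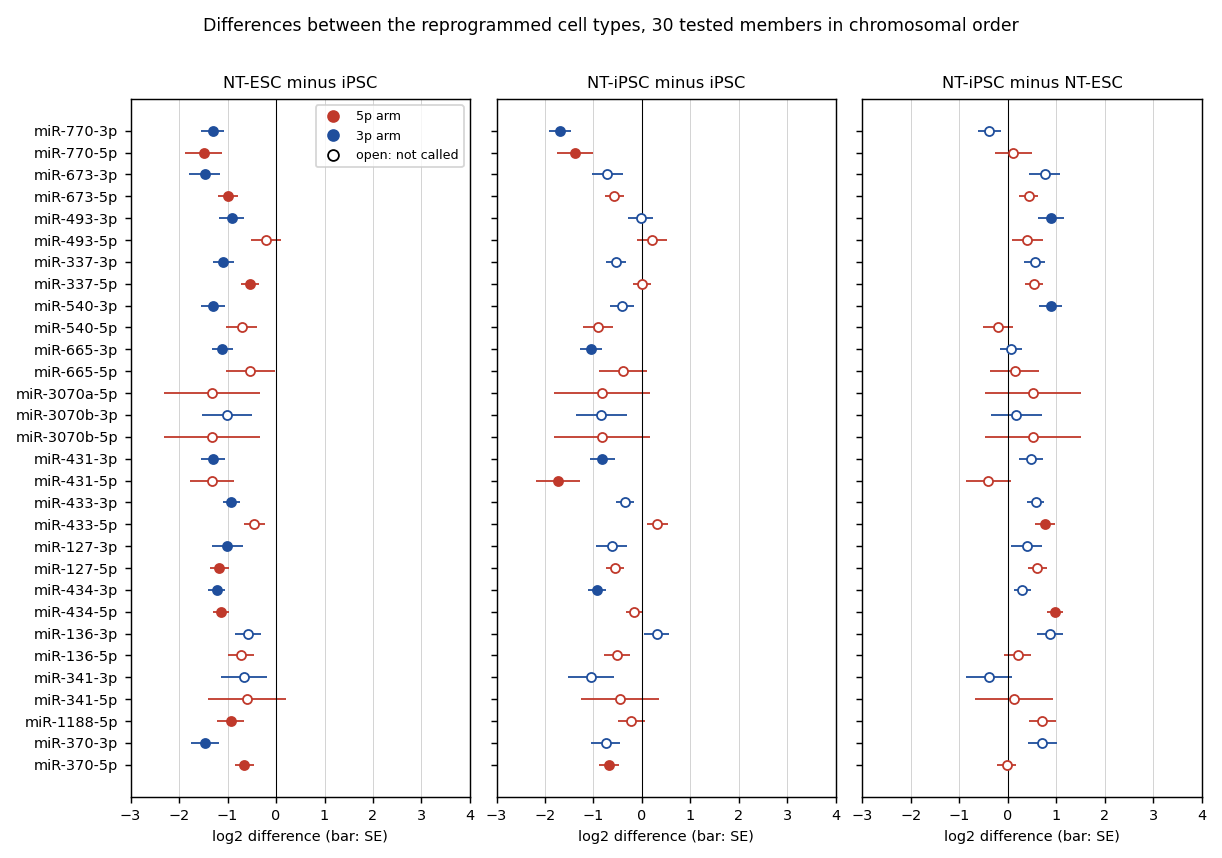
Differences between the reprogrammed cell types for the 30 tested members in chromosomal order, in log2 variance-stabilized units with SE, red for 5p arms and blue for 3p arms, filled where called. Apart from both names of the Mir3070 5p sequence, whose place below 0 against iPSCs the filter fixed, 28 of 28 points lie below 0 for NT-ESC minus iPSC (18 filled) and 24 for NT-iPSC minus iPSC (7 filled). Of all 30, 25 lie above 0 for NT-iPSC minus NT-ESC (4 filled).

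The miRNAs of the Mirg side of the same domain, which continues the maternal transcription unit beyond Rian, gave a like picture for NT-ESCs against iPSCs: 36 of 68 tested were called, all lower, with a median of -0.91. The stretches differed in their share of miRNA reads. The Mirg side took 9.30% to 10.05% in ESCs, 9.69% to 9.82% in iPSCs, 3.48% to 3.96% in NT-ESCs and 5.035% to 5.60% in NT-iPSCs. Between ESCs and iPSCs, the Rtl1 and Rian side went from 1.49% to 1.57% up to 5.71% to 5.99%. These shares are descriptive, and the difference between the stretches was not tested.

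As to sequence, 11 of the 16 members called higher in the reprogrammed mean than in ESCs end in U, 3 of the 9 called lower do, and 0 of the 5 not called. Over all tested miRNAs with a RefSeq sequence, 46.5% of 230 called higher, 28.6% of 227 called lower and 33.7% of 92 not called end in U. Median GC content was 57.4% in the 16 and 56.5% in the 9, and the ranges overlapped. These are counts, given without a test.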

How the data were processed

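Small RNA had been sequenced on an Illumina/Solexa instrument in 12 libraries. The authors counted reads per miRNA, normalized them with DESeq and deposited variance-stabilized values on the log2 scale. The submitters' processing notes name the mouse build mm8; the DESeq version and miRBase release are not given in the sources used here. The table holds no coordinates, so positions and sequences come from RefSeq (GRCm38.p6) and gene annotation from GENCODE M21. The stabilization was inverted to recover reads: 100% of values above 0 were whole within 0.05 read. Size factors are known up to 1 shared constant, set to match the median of ratios. Differences were tested with limma 3.58.1 (R 4.3.3, trended empirical Bayes, 1 mean per cell type, all 12 libraries) on the deposited values for 732 miRNAs (10 reads or more, in 2 or more libraries), with Benjamini-Hochberg adjusted p under 0.05. Arm balance was tested with scipy 1.17.1 by exact permutation, and its adjustment was widened from the hairpins of the group to all 142 hairpins. The scripts were tested on simulated data. Values are given in every library for the arm with more reads of each hairpin, for arms called in opposite directions and for hairpins whose arm balance is given; others by range. Members, lists and tests were chosen with earlier results of these data known. Alternatives were upper quartile and trimmed-mean (TMM-type) scaling, log2 of normalized reads plus 1, voom on the recovered reads, dropping the filter, a stricter filter of 100 reads throughout 1 group, fitting the compared groups alone, adding a minimum difference of 1, and omitting 1 library at a time. Fits that leave 1 library in a group assume that it varies like the others.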

Additional observations from a re-analysis of the deposited data

How the results depend on the processing

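No paired analysis was possible because the cell types share no replicate numbers. No member's called difference and no tested arm balance called in the main analysis changed direction under the alternatives run. Over single members, 4765 of 5040 values kept their side of the threshold, 113 gained a call and 162 lost one. Requiring a difference of at least 1 left 12 members called for MEFs against ESCs, 16 for the reprogrammed mean against ESCs, 4 for NT-iPSCs against iPSCs and 0 for NT-iPSCs against NT-ESCs. For NT-iPSCs against iPSCs, voom called 11 and a fit of only those groups 3. For NT-iPSCs against NT-ESCs, trimmed-mean scaling called 1, voom 9, the limit of 100 reads 7 and a fit of only those groups 2. The cause was not tested. For these counts and those that follow, the share of all miRNAs called under the same setting is not given. They show how many members were called, not whether the members stood apart from the other miRNAs. Leaving out 1 library gave 16 to 19 calls for MEFs against ESCs, 23 to 26 for the reprogrammed mean against ESCs, 21 to 24 for it against MEFs, 21 to 24 for iPSCs, 17 to 20 for NT-ESCs and 19 to 22 for NT-iPSCs against ESCs. It gave 13 to 18 for NT-ESCs against iPSCs, 4 to 8 for NT-iPSCs against iPSCs (4 without either iPSC library), and 0 to 7 for NT-iPSCs against NT-ESCs: 0 without either NT-ESC library, 1 without ESC library 3, 2 without ESC library 2 or MEF library 15, and 7 without MEF library 13. For arm balance it gave -0.0494 to 0.37 for Mir770, -0.26 to 0.0204 for Mir493, -0.22 to 0.23 for Mir431, and -1.17 to -0.75 for Mir136, which was called without iPSC library 63 or NT-iPSC library 52. Scaling moved the median of all miRNAs against ESCs by 0.21 (upper quartile) and -0.15 (trimmed mean) for the reprogrammed mean. With 2 libraries a group, moderate differences between reprogrammed types could be missed, and members under about 30 normalized reads have wide errors.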
